A study of Mus musculus with 11 samples.

Results

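The genes of retinol and alcohol dehydrogenases and of their partners in retinoid transport were followed in im-scWAT cells, a line of mouse preadipocytes that was made from the inguinal subcutaneous white depot with SV40 large T antigen. The 10 genes, of 29955 gene symbols in the files, were Rdh16, Rdh9, Rdh18-ps, Rdh10, Adh1, Adh6a, Adh7, Aldh1a1, Rbp4 and Stra6. They were chosen by name from a list that was drawn up with FPKM values of these same samples known, so their levels are given as a description. FPKM gives the mapped fragments of a transcript relative to its exon length and to the depth of the library, so levels in FPKM are per length and can be compared between genes. RNA-seq covered 11 samples. The time course had 6 samples. Cells were collected on day 0, on day 4 and on day 8. Each day had 1 sample labelled for the course with rosiglitazone (ROS, a PPARγ ligand, at 0.5 μM) and 1 for the course without it. All induced cultures received indomethacin, dexamethasone, IBMX, insulin and T3, and cells are called beige adipocytes at day 8 with ROS and white adipocytes at day 8 without ROS. Both samples of day 0 were preadipocytes that had not been given ROS. The other 5 samples were differentiated to day 8 with ROS after retroviral transduction with an shRNA against mouse Jmjd1a and with human JMJD1A, an H3K9 demethylase, expressed from the viral LTR promoter. WT-hJMJD1A had 2 samples, named WT A and WT B. A single sample each was made of S265A, which cannot be phosphorylated at this serine, of the phosphomimetic S265D, and of S265D-H1120Y, which in addition lacks demethylase activity. All samples are cultures of immortalized cells, and the sources used here do not say whether WT A and WT B came from separate transductions.

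Retinol from the blood, carried by RBP4 and taken up through the receptor STRA6, is oxidized in cells by retinol dehydrogenases of the short-chain family (RDH) and by cytosolic alcohol dehydrogenases (ADH) to retinaldehyde. Retinaldehyde dehydrogenases such as ALDH1A1 then oxidize it to retinoic acid, the ligand of the retinoic acid receptors. In fat, this pathway is known for its effects on adipocyte differentiation, and retinoic acid is a known inducer of Ucp1, the uncoupling protein of thermogenic adipocytes.

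Rdh9, Rdh16 and Rdh18-ps are neighbours on the plus strand of chromosome 10. In the mm9 build used by the files, the represented transcripts spanned chr10:127213461-127229753 (Rdh9, 2698 exonic bases), chr10:127238209-127252895 (Rdh16, 3208 exonic bases) and chr10:127261272-127283621 (Rdh18-ps, a noncoding transcript with 3648 exonic bases). The coding sequences of Rdh16 and Rdh9 in the GENCODE M1 annotation of the same build were 96.8% identical over 954 bases, and the predicted proteins of 317 residues were 95.9% identical. Of 6310 windows of 100 bases in Rdh16 transcripts of GENCODE M1, 2.63% also occurred in Rdh9. Rdh18-ps had 953 exonic bases in that annotation, fewer than the 3648 of the measured transcript. Of these 953 bases, 39.98% lay within exons of Rdh16, and 29.6% of the Rdh18-ps windows occurred in Rdh16. A longer Rdh16 transcript ran through the Rdh18-ps exons. The overlap of the measured Rdh18-ps transcript was not computed. Reads from these genes could be split or shared between them, so their separate values are uncertain to a degree not measured here. Adh7, Adh1 and Adh6a also lie side by side, at chr3:137880737-137895006, chr3:137940609-137953655 and chr3:137976250-137994098. Their transcripts shared no window of 50 bases, with 69.3% identity in coding bases between Adh1 and Adh7 and 63.3% between Adh1 and Adh6a.

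The proximal promoters of Rdh16 and Rdh9 are shown because both genes were highest in the same samples, and their upstream sequences are alike only in part. The sequences are the 250 bases before the RefSeq start in GRCm38.p6, on the plus strand at chr10:127800903-127801152 and chr10:127776155-127776404, and capitals mark the nuclear receptor half-site AGGTCA on either strand, TATAAA and CCAAT.
Rdh16: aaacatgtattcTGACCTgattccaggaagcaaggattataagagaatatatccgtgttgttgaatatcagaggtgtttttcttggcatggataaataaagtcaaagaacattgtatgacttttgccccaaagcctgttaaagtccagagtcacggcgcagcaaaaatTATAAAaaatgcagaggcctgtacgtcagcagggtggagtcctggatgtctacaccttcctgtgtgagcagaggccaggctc
Rdh9: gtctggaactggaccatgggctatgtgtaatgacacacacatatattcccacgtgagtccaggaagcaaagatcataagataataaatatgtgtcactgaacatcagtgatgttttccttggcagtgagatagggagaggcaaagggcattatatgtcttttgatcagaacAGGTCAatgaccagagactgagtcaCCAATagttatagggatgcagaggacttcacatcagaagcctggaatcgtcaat
In a global alignment of the 2 sequences, 156 of 289 columns were identical (54.0%). Columns with a gap count as not identical, so the share among paired bases is higher. The half-site stood 238 bases before the Rdh16 start on the minus strand and 79 bases before the Rdh9 start on the plus strand. It occurred in 14.0% of 32851 mouse promoters of the same length, and in none of the other 11 promoters of members in the table, which held 8 of the 10 genes. TATAAA was found 82 bases before the Rdh16 start (12.4% of all promoters on either strand) and CCAAT 54 bases before the Rdh9 start (33.8%). A pair of AGGTCA half-sites spaced by 1 base, searched as an exact match on both strands, was in 0.0335% of promoters and in none of the members. A match of these letters is a description of the sequence, and binding was not measured here. Rdh10 and Rdh18-ps had no entry in the table.

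The total of mapped bases behind the FPKM values was 3.10 to 5.29 Gb per sample. The adipocyte markers, summed over 9 genes, went from an FPKM of 270 in a day 0 sample to 35214 in beige adipocytes. There Fabp4 was at 31402 and Adipoq, encoding adiponectin, at 1291. The 8 beige markers summed to 265.4 in beige and 53.0 in white adipocytes, and the 8 preadipocyte markers to 140 and 572. Ly6a made up most of the preadipocyte sum, at 108 and 495. Between these samples, 6 of the 8 preadipocyte markers were at least 2-fold lower in beige adipocytes and 2 were within 2-fold. The macrophage markers Ptprc and Emr1 and the muscle markers Ckm and Myh4 were listed at 0 in all 11 samples, and 0 of 5 epithelial and 1 of 5 endothelial markers (Pecam1) reached an FPKM of 1. Of the macrophage list 1 of 6 measured genes (Cd68) and of the skeletal muscle list 2 of 6 (Acta1 and Mylpf) reached this level, with summed FPKM of 0.602 to 22.0 and 0.899 to 19.9. Since several members are known from liver, 10 hepatocyte markers were examined. Tat was listed at 0 throughout, 3 markers (Apoa1, Fga and Cyp2e1) reached an FPKM of 1, and the list summed to 0.0614 to 24.8. Mouse Jmjd1a (Kdm3a in the files) had an FPKM of 21.1 in untransduced beige adipocytes and of 20.4, 17.9, 13.03, 23.0 and 28.5 in WT A, WT B, S265A, S265D and S265D-H1120Y. Whether reads of the human transgene were counted there was not tested, so this gene does not check the knockdown.

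**Figure D1:**
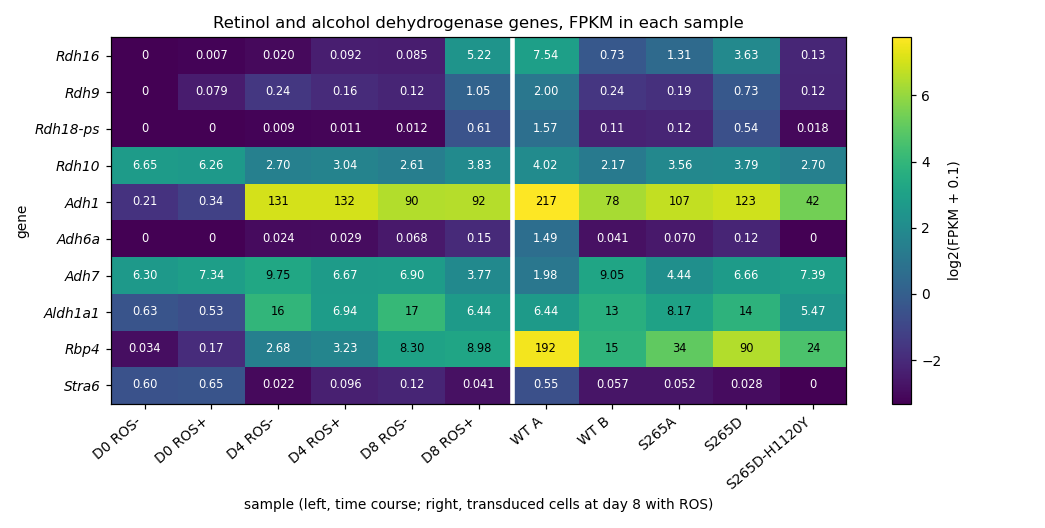
Heat map of the FPKM of the 10 genes (rows) in the 11 samples (columns), with the FPKM printed in each cell and log2(FPKM + 0.1) as colour. Adh1 was the highest of the 10 genes in all samples of days 4 and 8, and Rdh16 reached an FPKM above 3 in only 3 samples (D8 ROS+, WT A and S265D).

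Levels differed widely between the members. In the preadipocyte samples of day 0, Rdh10, which makes the retinaldehyde needed by the mouse embryo, and Adh7, a class IV alcohol dehydrogenase with high activity on retinol, were the only members with an FPKM of at least 1. Rdh10 was at 6.65 and 6.26 and Adh7 at 6.30 and 7.34, so their order turned between the 2 samples. From day 4 on Adh1 had the highest FPKM, between 42.0 and 217. In the time course Aldh1a1 was second at day 4 and in white adipocytes, and Rbp4 was second in beige adipocytes and in all 5 transduced samples. Stra6 had an FPKM under 1 in every sample, and Rdh18-ps and Adh6a in every sample except WT A, where they were at 1.57 and 1.49.

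On the antisense strand, 11 of 110 member values were at least 0.1 FPKM, and in 0 of these was the antisense share above that of the whole library (1.52 to 2.28%).

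The first question was how ROS changed these genes in adipocytes. Rdh16, Rdh9 and Rdh18-ps stood out at day 8, where the ROS-treated sample was the highest of the time course for each of them. The FPKM of Rdh16, a retinol dehydrogenase that also acts on androgens, was listed at 0 and at 0.00662 in the samples of day 0, at 0.0199 without and 0.0916 with ROS at day 4, and at 0.0854 without and 5.22 with ROS at day 8. In mapped bases, the day 8 values rested on 1191 bases in white and 85155 in beige adipocytes. Of the time course, only the ROS-treated sample of day 8 was above 0.1, and its level was 61.2-fold that of white adipocytes.

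Rdh9, a close relative of Rdh16, was listed at 0 and at 0.0787 at day 0. It was at 0.245 without and 0.155 with ROS at day 4, and at 0.118 without and 1.05 with ROS at day 8. The ratio with over without ROS was 0.634 at day 4 and 8.90 at day 8. Rdh18-ps, listed as noncoding, was listed at 0 in both day 0 samples and had an FPKM of 0.00883 and 0.0107 at day 4 without and with ROS. At day 8 it was at 0.0125 without ROS, which rested on 198 mapped bases, and at 0.613 with ROS, a ratio of 49.1. The sample of day 8 with ROS lay above all others of the time course in all 3 genes.

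The 3 alcohol dehydrogenases differed among themselves. Adh1, the class I enzyme that oxidizes ethanol and retinol, was at 90.3 without and 92.0 with ROS at day 8 (ratio 1.02) and at 131 and 132 at day 4 (ratio 1.01). Adh6a was at 0.0681 without and 0.146 with ROS at day 8 (ratio 2.15), the highest value of its time course, and these values rested on 397 and 998 mapped bases. Adh7 was at 6.90 without and 3.77 with ROS at day 8 (ratio 0.547) and at 9.75 and 6.67 at day 4 (ratio 0.684). Rdh10 was at 2.61 and 3.83 at day 8 (ratio 1.47).

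Aldh1a1 was lower with ROS on both days. Its FPKM was 15.6 without and 6.94 with ROS at day 4 (ratio 0.444), and 17.0 without and 6.44 with ROS at day 8 (ratio 0.380), while the day 0 samples were at 0.633 and 0.525. Stra6 was at 0.120 without and 0.0410 with ROS at day 8 (ratio 0.343), values that rested on 1492 and 599 mapped bases. At day 4 Stra6 went the other way, at 0.0222 without and 0.0960 with ROS, on 198 and 1394 mapped bases. Rbp4 was at 8.30 without and 8.98 with ROS at day 8, a ratio of 1.08.

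At day 8, 4 of the 10 members had a ratio of at least 2, against 4% of 15536 genes, and 2 had a ratio of at most 0.5, against 15.2%. At day 4, 6 members passed the minimum FPKM of 0.1. Of these, 0 had a ratio of at least 2 (2.2% of all genes) and 1, Aldh1a1, had a ratio of at most 0.5 (4.51%). Nothing is read from these shares, since the members were selected on FPKM values of the same samples. Each ratio sets 1 sample against 1 sample and was not tested. Between the preadipocyte samples, which had not been treated differently, 4.9% of genes were 2-fold or more apart, and among the members that passed the minimum it was 1 of 6, Rbp4 (0.0345 and 0.165). The median log2 ratio of all genes was -0.21 at day 8, and -0.02 after FPKM was scaled by median ratios between samples. Relative to the unscaled median, the log2(FPKM + 0.1) differences were 5.05 for Rdh16, 2.61 for Rdh9, 2.87 for Rdh18-ps and -1.17 for Aldh1a1. Scaling also moved the split of all genes past 2-fold from 622 higher and 2366 lower to 853 higher and 1838 lower, and 4 members were still higher and 2 lower. The beige and preadipocyte marker sums given above moved with the same samples, and their part in these differences was not tested. In bulk RNA, fewer cells of a type and less RNA per cell cannot be told apart.

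**Figure D2:**
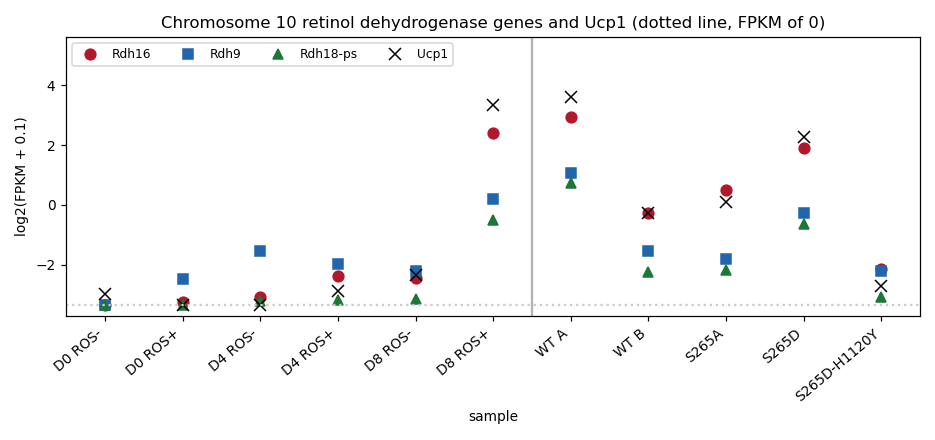
Points show log2(FPKM + 0.1) of Rdh16, Rdh9, Rdh18-ps and Ucp1 in each of the 11 samples, 1 point per gene and sample, with the dotted line at an FPKM of 0. All 4 genes were highest in D8 ROS+, WT A and S265D, with Rdh16 at 5.22, 7.54 and 3.63.

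Across the 11 samples, the genes with levels most like those of Rdh16 were examined by Pearson correlation of log2(FPKM + 0.1) among the 13615 genes that reached an FPKM of 1 in any sample. Ucp1 came first (r = 0.991), followed by Rdh18-ps (0.961), Cpt1b (0.959), which brings fatty acids into mitochondria, Cidea (0.946), a lipid droplet protein, and Pck1 (0.942), an enzyme of glyceroneogenesis. Ucp1 was at 0.0970 in white and 9.90 in beige adipocytes, and at 12.1, 0.724, 0.972, 4.67 and 0.0528 in WT A, WT B, S265A, S265D and S265D-H1120Y. Without D8 ROS+ and WT A, the samples farthest from the median of Ucp1, r of Rdh16 with Ucp1 was 0.985 over 9 samples, and Spearman's rho over all 11 was 0.943. For Rdh9 with Ucp1, r was 0.902 over all 11 samples and 0.765 without them, and for Rdh18-ps 0.974 and 0.977. For Adh6a with Ucp1, r was 0.786 and Spearman's rho 0.910. The points share cell line, protocol and, in part, treatment, so these values describe the samples only.

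The same ranking was made for Adh1, Aldh1a1 and Rbp4. Adh1 was most like Lgals12 (0.997), Mgll (0.995), A530016L24Rik (0.994) and G0s2 (0.993), of which Mgll encodes monoacylglycerol lipase and G0s2 an inhibitor of adipose triglyceride lipase. Aldh1a1 was most like E030003E18Rik (0.989), Nlrc5 (0.979), Serpina3n (0.975), AI607873 (0.970) and H2-K1 (0.969), of which H2-K1 encodes an MHC class I molecule and Nlrc5 an activator of MHC class I genes. Rbp4 was most like Erap1 (0.982), 4632428C04Rik (0.979), Tshr (0.979), Nrg4 (0.978) and AZ2 (0.977), of which Tshr encodes the thyrotropin receptor and Nrg4 a neuregulin secreted by fat. Among pairs of members that were not both on chromosome 10, the highest correlations were those of Adh1 with Aldh1a1 (0.931) and of Adh6a with Rdh18-ps (0.880).

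The second question was how the members changed during differentiation itself. Adh1, Aldh1a1 and Rbp4 rose and Rdh10 and Stra6 fell from day 0 to days 4 and 8. Adh1 rose from an FPKM of 0.208 and 0.336 at day 0 to 131 and 132 at day 4 and 90.3 and 92.0 at day 8, with no overlap between day 0 and the later days. The log2 changes given here come from a limma fit with a term for ROS that days 4 and 8 share. They are the changes of cells without ROS only where ROS acted alike on both days. For Rdh9 the ROS ratio was 0.634 at day 4 and 8.90 at day 8, so its fitted changes are not those of the samples without ROS. The same holds for Stra6, with ratios of 4.32 at day 4, where both values were under 0.1, and 0.343 at day 8. For Adh1 the change at day 8 was 7.95 ± 0.23 (SE, 2 samples a day), with an adjusted p of 0.000257 in limma. As the members were chosen with FPKM values of these samples known, the limma p-values of members are given as a description only. Aldh1a1 had a change of 4.60 ± 0.17 at day 8 (limma adjusted p = 0.000413), and of 3.96 without the ROS term, where both samples of a day are averaged (limma adjusted p = 0.00576). Rbp4, the retinol carrier and an adipokine, was at 0.0345 and 0.165 at day 0, at 2.68 and 3.23 at day 4 and at 8.30 and 8.98 at day 8, with a log2 change of 5.44 ± 0.39 at day 8 (limma adjusted p = 0.00146).

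Rdh10 fell from 6.65 and 6.26 to 2.70 and 3.04 at day 4, and its log2 change at day 8 was -1.18 ± 0.17 (limma adjusted p = 0.00809). Stra6 was at 0.597 and 0.646 at day 0, and at 0.0222 without and 0.0960 with ROS at day 4. Its log2 change at day 8 was -2.05 ± 0.37 (limma adjusted p = 0.0135). Adh7 was at -0.06 ± 0.18 at day 8 (limma adjusted p = 0.807), and Rdh9 at 1.42 ± 0.81 (limma adjusted p = 0.210). Without the ROS term these were -0.41 and 1.91 (limma adjusted p = 0.362 and 0.104).

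Of the 10 members, 7 passed the minimum of 0.1 FPKM in at least 2 of 6 samples, and Rdh16, Rdh18-ps and Adh6a did not. Of these 7, 3 were called higher and 2 lower at both days. Of 15667 genes, limma called 21.9% higher and 16.1% lower at day 4 and 25.3% higher and 20.5% lower at day 8. The fit on log2(FPKM + 0.1) had 2 residual degrees of freedom, and the day 8 samples are also those of the ROS comparison. Leaving out the day 4 sample without ROS left 0 of all genes called by limma at day 4, with an adjusted p of 0.0517 for Adh1. The adipocyte marker sum rose from 270 and 272 at day 0 to between 11290 and 35214 in the later samples, and its part in these changes was not tested.

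**Figure D3:**
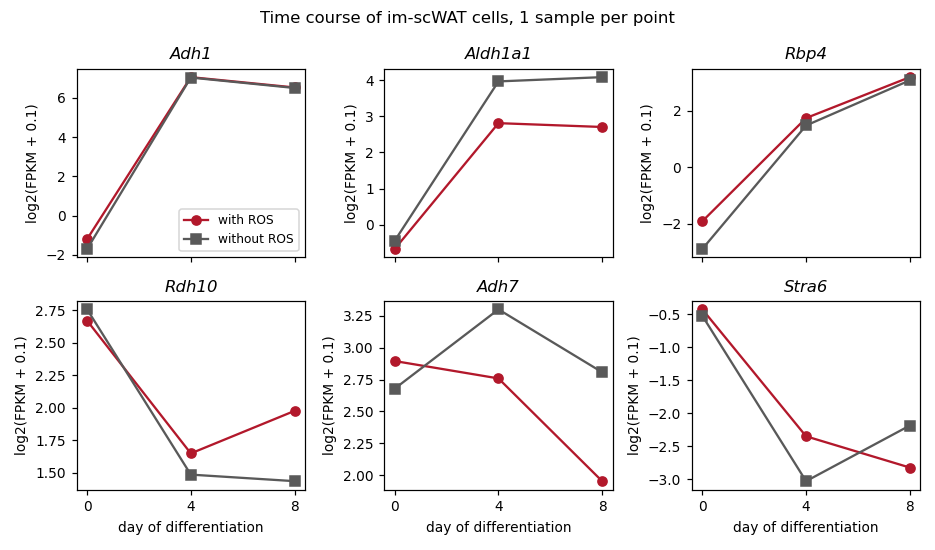
Each panel shows log2(FPKM + 0.1) of 1 gene against the day of differentiation, with ROS in red circles and without ROS in grey squares, 1 sample per point. Adh1 with and without ROS overlapped at days 4 and 8, and Aldh1a1 was lower with ROS on both days (6.94 against 15.6 and 6.44 against 17.0).

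The third question was how the state of JMJD1A bore on these genes in beige-induced cells. The WT samples, the only labelled replicates, lay far apart in most members. Rdh16 was at 7.54 and 0.732 in WT A and WT B, Rdh9 at 2.00 and 0.241, and Rdh18-ps at 1.57 and 0.111. Rbp4 was at 192 and 14.9, Adh1 at 217 and 78.4, Adh6a at 1.49 and 0.0406, and Stra6 at 0.545 and 0.0567. Adh7 went the other way, at 1.98 (WT A) and 9.05 (WT B), and Aldh1a1 was at 6.44 and 12.5. In all, 8 of 10 members were 2-fold or more apart between WT A and WT B, against 27.2% of 15837 genes. The beige marker sum was 292 and 32.8 (WT A and WT B), and the preadipocyte sum 147 and 570. Ly6a, at 116 and 496, made up most of the preadipocyte sum. Of 8 preadipocyte markers, 4 were at least 2-fold higher in WT B and 4 were within 2-fold. The part of the markers in the gap was not tested.

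In S265A, Rdh16 was at 1.31 and Rdh18-ps at 0.123, both between the WT samples, and Rdh9 was at 0.189, below both. Against the WT mean of 4.13 ± 4.81 (SD, n = 2) the Rdh16 ratio was 0.318. Rbp4 was at 33.6, between the WT samples (ratio 0.325 to the WT mean), and Stra6 at 0.0525, below both. Ratios of at most 0.5 were found in 6 of 10 members, against 7.55% of 16051 genes, and ratios of at least 2 in 0, against 3.41%. The direction depended on the WT sample. Against WT B alone, Rdh16 had a ratio of 1.80, Rdh18-ps of 1.11 and Rbp4 of 2.26, and 1 member was at most 0.5. S265A lay between the WT samples in 8 members, against 53.3% of all genes, and below both in 2, against 22.4%. The gap between the WT samples was 2-fold or more in 8 of the members, which leaves more room between them than for most genes.

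In S265D, Rdh16 was at 3.63, Rdh9 at 0.727 and Rdh18-ps at 0.543, each between WT A and WT B. Aldh1a1 was at 14.3, above both WT samples, and Stra6 at 0.0278, below both. Adh6a was at 0.120, a ratio of 0.157 to the WT mean and of 2.96 to WT B alone, values that rested on 798 mapped bases in S265D and 200 in WT B. Apart from Aldh1a1 and Stra6, all members (8 of 10) lay between the WT samples, where 55.9% of all genes lay, with 23.4% above and 20.7% below both. Ratios to the WT mean of at most 0.5 were found in 2 members (5.56% of 16089 genes), and of at least 2 in 0 (4.02%). Against WT A alone 6 members were at most 0.5 and 2 at least 2, and against WT B alone 0 and 5.

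In S265D-H1120Y, 7 of 10 members were lower than in both WT samples, against 31.5% of 16132 genes, and 3 lay between them, against 41.5%. Rdh16 was at 0.128, close to its level in white adipocytes (0.0854), with a ratio of 0.0353 to S265D. Rdh9 was at 0.119 (ratio 0.164) and Rdh18-ps at 0.0178 (ratio 0.0327). Adh1 was at 42.0 (ratio 0.342), Aldh1a1 at 5.47 (ratio 0.382) and Rbp4 at 24.2 (ratio 0.269). Adh6a and Stra6 were listed at 0, against 0.0406 and 0.0567 in WT B, which rested on 200 and 598 mapped bases. Adh7 was at 7.39 (ratio 1.11) and Rdh10 at 2.70 (ratio 0.712), both within 2-fold of S265D. In all, 7 of 9 members above the minimum were at most 0.5 times S265D, against 8.66% of 15760 genes, and 0 were at least 2 times S265D, against 5.62%. The members below both WT samples were Rdh16, Rdh9, Rdh18-ps, Adh1, Adh6a, Aldh1a1 and Stra6, and Rdh10, Adh7 and Rbp4 lay between them. In these counts Rdh16, Rdh9 and Rdh18-ps, which share sequence, were counted separately. S265D-H1120Y had 1 sample, so whether it differs beyond the spread between cultures was not tested. The beige marker sum was 89.7 here and 176 in S265D, and the preadipocyte sum 214 and 478. Ly6a, at 165 and 417, made up most of the preadipocyte sum, and 6 of 7 preadipocyte markers above the minimum were within 2-fold.

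Transduced cells differed from untransduced beige adipocytes most clearly in Rbp4. All 5 transduced samples, at 14.9 to 192 with a median of 33.6, were above the untransduced sample at 8.98. For Rdh16, 4 of 5 transduced samples were below 5.22 and 1 was above. The knockdown, the human JMJD1A and the transduction itself cannot be told apart here.

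**Figure D4:**
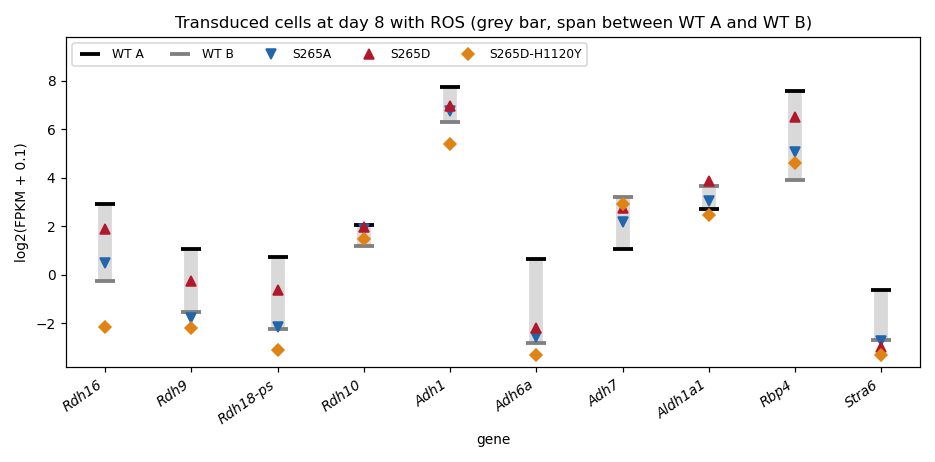
For each of the 10 genes, log2(FPKM + 0.1) is shown in the 5 transduced samples at day 8 with ROS, 1 marker per sample, with a grey bar spanning WT A and WT B. S265A and S265D lay within the bar for most genes, and S265D-H1120Y lay below it for Rdh16, Rdh9, Rdh18-ps, Adh1, Adh6a, Aldh1a1 and Stra6.

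Other genes of the pathway were taken from fixed lists. Of 16 further short-chain retinol and retinal enzymes in the files, 10 passed the minimum at day 8, 1 was at least 2-fold higher with ROS (Rdh1) and 1 lower (Rdh12). Rdh1, the neighbour of Rdh9 on chromosome 10, was at 0.164 without and 0.989 with ROS (ratio 6.02). In GENCODE M1, 11.4% of the 4054 exonic bases of Rdh9 lay within Rdh1 exons. Rdh12, which reduces retinaldehyde, was at 6.12 without and 1.21 with ROS (ratio 0.198). Of the other alcohol dehydrogenases 1 of 3 was higher, Adh6b, at 0.162 without and 1.54 with ROS (ratio 9.51). Among other aldehyde dehydrogenases 0 of 9 were higher and 3 lower (Aldh1a2, Aldh3a1 and Aldh3b1), with Aldh1a2, which makes retinoic acid, at 0.454 and 0.0430.

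In retinoid binding, transport and storage, 2 of 8 genes were higher (Rbp7 and Lipe) and 2 lower (among them Crabp1). Rbp7, a cellular retinol-binding protein, was at 1.62 without and 81.0 with ROS (ratio 50.1), and Crabp1, which binds retinoic acid, at 1.39 and 0.132. Of 6 retinoic acid receptors, 1 was higher (Rarb) and 1 lower (Rara). Of 2 genes of retinoic acid catabolism 1 was lower (Cyp26c1), and of 10 retinoic acid target genes 1 was higher (Rarb) and 2 lower (among them Rarres1). Rarb was low, at 0.115 without and 0.232 with ROS. Cyp26c1 was at 0.103 without ROS, on 696 mapped bases, and listed at 0 with ROS. The other catabolism gene, Cyp26b1, was at 0.509 without and 0.765 with ROS. The median log2 ratio of these lists lay between -0.54 (aldehyde dehydrogenases) and 0.39 (alcohol dehydrogenases), beside 0.33 for the members and -0.21 for all genes.

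From day 0 to day 8, where 25.3% of all genes were called higher and 20.5% lower, limma called 8 of 10 tested short-chain enzymes higher and 0 lower, 3 of 3 alcohol dehydrogenases higher, and 4 of 9 aldehyde dehydrogenases higher and 1 lower. For retinoid binding, transport and storage, 4 of 8 were called higher and 2 lower, for the receptors 3 of 6 higher and 2 lower, for catabolism 1 of 2 higher, and for target genes 6 of 10 higher and 2 lower. Crabp1 and Crabp2 had log2 changes of -4.24 ± 0.28 and -5.39 ± 0.22 at day 8 in the fit with the ROS term (limma adjusted p = 0.00121 and 0.000443). Aldh1a7, a close relative of Aldh1a1, had a log2 change of 6.36 ± 0.27 in the same fit (limma adjusted p = 0.000513). Crabp2 and Aldh1a7 were singled out after their values were seen.

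In the transduced cells, Rdh1 was at 1.33 and 0.117 in the WT samples, at 0.196 in S265A, 0.293 in S265D and 0.0615 in S265D-H1120Y, the same order of samples as for Rdh16. Adh6b was at 0.205 in S265A (ratio 0.236 to the WT mean) and 0.0355 in S265D-H1120Y (ratio 0.0791 to S265D). Aldh1b1, a mitochondrial enzyme, was at 1.35 in S265D and 0.0188 in S265D-H1120Y (ratio 0.0139), and Aldh1a2 at 1.37 and 0.0383 (ratio 0.0280). In S265A, Aldh3a1 had a ratio of 2.99, Aldh1b1 of 0.413, Crabp1 of 2.28 and Dhrs4, a retinal reductase, of 0.444 to the WT mean. In S265D, Aldh1a2 had a ratio of 7.39, Crabp1 of 2.67 and Rarres1 of 0.341 to the WT mean. In S265D-H1120Y, Rarres1 had a ratio of 0.232 and Rbp7 of 0.321 to S265D.

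By list, ratios of S265A to the WT mean of at least 2 and at most 0.5 were found in 0 and 4 of 11 short-chain enzymes, 0 and 1 of 3 alcohol dehydrogenases, 1 and 2 of 9 aldehyde dehydrogenases, 2 and 1 of 8 genes of binding, transport and storage, 0 and 1 of 6 receptors, and 1 and 1 of 10 target genes. For S265D to the WT mean, the counts were 0 and 2 of 11, 0 and 0 of 3, 1 and 0 of 9, 2 and 1 of 8, 0 and 0 of 6, and 1 and 2 of 10. For S265D-H1120Y to S265D, they were 0 and 2 of 10, 0 and 1 of 3, 0 and 5 of 9, 0 and 2 of 8, 0 and 0 of 6, and 0 and 3 of 10. Over all genes, the shares at least 2 and at most 0.5 were 3.41% and 7.55% for S265A and 4.02% and 5.56% for S265D. For S265D-H1120Y to S265D they were 5.62% and 8.66%. The only catabolism gene that passed the minimum in these comparisons was within 2-fold in each.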

How the data were processed

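RNA-seq of 11 im-scWAT samples was analysed, grouped by the sample labels. The authors mapped reads to the mm9 genome and to UCSC transcripts with BWA followed by a local realignment, and deposited strand-specific FPKM for 55419 transcripts. The deposited files also give the signal of each transcript as mapped bases, which are not read counts, so no count test was used. Labels and paper differ on when ROS was removed before day 8. The sense row marked by the authors as representative stood for each gene symbol. The members, gene lists (7 pathway lists, 8 marker lists) and tests were chosen with earlier results of these data known.

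Comparisons with 1 sample in a group used FPKM ratios without a pseudocount, called at 2-fold with a minimum FPKM of 0.1 in one of the compared samples and no test. Days 4 and 8 were compared with day 0 in R 4.3.3 by limma 3.58.1 on values of log2(FPKM + 0.1), which understates changes of low genes, with a term for ROS, two-sided, and Benjamini-Hochberg adjustment over all genes at 0.05. The script was tested on simulated data. In this fit the residual spread of a gene came from the gap between the day 0 samples and from the difference in the ROS effect between days 4 and 8. The day 0 gap may be technical. A gene whose ROS effect differed between the days has a larger SE and p-value for that reason. Named were the members, the list genes that reached an FPKM of 1 in any day 8 sample and had a 2-fold ratio (at most 6 per comparison by size), and the 5 genes most like Rdh16, Adh1, Aldh1a1 and Rbp4. Some genes that this rule or the lists hold are not reported here. Promoters came from RefSeq (GRCm38.p6), transcripts for sequence identity from GENCODE M1. Alternatives changed the minimum, the pseudocount, the transcript, the scaling, the WT sample, the ROS term and the samples in the fit. Python 3.11.15, numpy 2.4.6, pandas 2.3.3 and matplotlib 3.10.9 were used.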

Additional observations from a re-analysis of the deposited data

Results flagged for a closer look

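The ROS ratio of Rdh9 was below 1 at day 4, though not past 2-fold, and above 1 at day 8. The FPKM ratio with over without ROS was 0.634 at day 4, where the values were 0.155 and 0.245, and 8.90 at day 8, where they were 1.05 and 0.118. Each value comes from 1 sample, and the difference between the days was not tested. In log2(FPKM + 0.1) the day 4 difference was -0.43, smaller in size than the gap of 0.84 between the day 0 samples. With the transcript of the highest mean FPKM, the day 4 ratio was 0.804. The day 4 values rested on 2117 mapped bases with and 2051 without ROS, and the Rdh9 transcripts share stretches with Rdh16 and Rdh1.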

How the results depend on the processing

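At day 8 the members at least 2-fold higher with ROS went from 4 to 2 with a minimum FPKM of 1 and to 1 with ratios of FPKM + 1, and those at most 0.5 from 2 to 1 with that minimum and with FPKM + 0.1 or + 1. At day 4 they went from 0 to 2 higher with no minimum. With FPKM + 1, members at most 0.5 went from 6 to 2 in S265A, from 2 to 0 in S265D and from 7 to 4 in S265D-H1120Y, and with a minimum of 1 from 2 to 1 in S265D and from 7 to 4 in S265D-H1120Y. Leaving out 1 WT sample gave 1 member at least 2 in S265A either way and 1 at most 0.5 against WT B alone, and 2 to 5 at least 2 and 0 to 6 at most 0.5 in S265D. Against WT A alone and WT B alone, the Rdh16 ratios in S265A were 0.174 and 1.80. Those of Rdh18-ps were 0.0784 and 1.11, of Rbp4 0.175 and 2.26, and of Adh7 2.25 and 0.491. In S265D the ratios were 0.481 and 4.96 (Rdh16), 0.363 and 3.01 (Rdh9) and 0.346 and 4.89 (Rdh18-ps). Rbp4 was at 0.468 and 6.04, Adh6a at 0.0808 and 2.96, and Adh7 at 3.37 and 0.736 in S265D. Gene counts past 2-fold also moved with the minimum: at day 8 with ROS, 314 higher and 1215 lower with a minimum of 1, and 1332 and 3698 with none. In S265A these were 145 and 439, or 1456 and 2504, in S265D 193 and 266, or 1580 and 2141, in S265D-H1120Y 323 and 634, or 1903 and 2493, and at day 4 with ROS 48 and 126, or 1395 and 1493. With FPKM + 1 they were 219 and 632 at day 8, 11 and 28 at day 4, 61 and 149 in S265A, 87 and 102 in S265D, and 186 and 318 in S265D-H1120Y. With FPKM + 0.1 they were 180 and 309 at day 4, 291 and 661 in S265A, and 353 and 436 in S265D. Without WT B, 1680 genes were higher in S265A and 2066 in S265D.

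In limma, members called lower went from 2 to 1 on both days with FPKM of at least 1 in 2 samples, which leaves out Stra6, and with all 11 samples in the fit. That fit called 2059 genes higher and 1406 lower at day 4 and 2548 and 2003 at day 8, instead of 3435, 2521, 3970 and 3214. Leaving out 1 sample in turn gave 0 to 3 members higher and 0 to 2 lower at day 4, and 1 to 2 lower at day 8. Over all genes, 0 to 2919 were then called higher and 0 to 2748 lower at day 4, with 0 in both directions without the day 4 sample lacking ROS, where a lone sample is assumed to vary like the others. At day 8, 1840 to 3637 were higher and 1066 to 2700 lower, with the lowest counts without the day 8 sample lacking ROS and without the day 0 sample labelled with ROS. The log2 change of Rdh9 at day 4 ranged from -1.47 to 1.37 and that of Adh7 at day 8 from -0.29 to 0.050. Of all single values under these alternatives, 444 kept their direction and call or moved by less than 1 SD, and 70 moved by more. That SD was between the samples of day 0 for ROS ratios and between the WT samples for ratios of transduced samples. The WT samples lay far apart, so large moves counted as kept, such as Rdh16 in S265A from 0.318 to 0.174. A further 9 values turned direction, 14 lost their limma call and 2 gained one. The cause of these moves was not tested. No paired analysis was possible because the groups compared share fewer than 2 replicate numbers. Values under an FPKM of 0.1 rest on few mapped bases, and 1 sample per group limits every ratio.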
